A study of Mus musculus with 6 samples.

Results

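The genes for the subunits of oxidative phosphorylation were followed in the embryonic mouse neocortex, with the nuclear and the mitochondrial genome set side by side. Members were protein-coding genes whose symbols begin as the standard names of respiratory chain and ATP synthase subunits do: Nduf followed by a, b, c, s or v and a digit, Sdha to Sdhd, Uqcr, Cox4 to Cox8, Atp5, and the mt- genes for Nd, Co, Cytb and Atp. The rule found 97 of 48709 listed genes, 84 of them nuclear and 13 mitochondrial, after 10 matching genes that are not annotated as protein coding were set aside. By symbol, 44 belonged to complex I, 4 to complex II, 9 to complex III, 21 to complex IV and 19 to complex V. Ndufa4, which is now counted as a complex IV subunit, stayed with complex I as its symbol places it. Genes with other symbols, such as Cyc1, Cycs and Ndufab1, are outside the rule and are described with the related lists.

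The libraries came from the dissected neocortex of C57BL/6 embryos at embryonic stage E15.5. In 3 embryos one copy of Rest lacked exon 4 (Rest(+/deltaExon4), called Rest_het here), and 3 embryos were wild type (WT). REST is a transcriptional repressor of neuronal genes. The study asked how this heterozygous deletion alters cortical RNA. The labels give no sex, litter or batch and do not say whether the mice shared a litter. The p-values below treat these 6 samples as independent, which the labels do not settle.

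Oxidative phosphorylation is carried out in the inner mitochondrial membrane. Complexes I and II take electrons from NADH and succinate, complex III passes them to cytochrome c, complex IV hands them to oxygen, and complex V (ATP synthase) uses the proton gradient built by complexes I, III and IV to make ATP. Most subunits are encoded in the nucleus and imported, whereas the mitochondrial DNA encodes core subunits of every complex except II, so that complexes I, III, IV and V need both genomes. Neural progenitors rely much on glycolysis, and neurons shift towards oxidative phosphorylation as they differentiate.

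Gene reads per library were 18426652, 17891118 and 17835117 in Rest_het and 20753653, 20010687 and 19996943 in WT. Levels are given as CPM, reads brought to a common library size after scaling by trimmed means (TMM). Rest stood at 16.7, 19.0 and 18.6 CPM in Rest_het and at 21.0, 19.7 and 21.1 CPM in WT. Every Rest_het value was below every WT value, and the two-sided exact permutation test gave p = 0.1, the smallest that 3 against 3 samples allow. The same order held in 8.94% of all tested genes. In edgeR's quasi-likelihood test the log2 fold change of Rest was -0.19 ± 0.10 (SE). Its unadjusted p there was 0.098 and its adjusted p 0.49, so Rest itself did not pass. The read count of Rest covers the whole gene, so it does not measure exon 4 itself. CreERT2 reads were 10, 16 and 17 in Rest_het and 0 in each WT library, and LacZ reads were 0 in each Rest_het library and 27, 51 and 43 in WT, so the Rest allele was not the single difference between the groups, and the part of these transgenes in any result was not tested. The 10 neocortex markers were all detected, with summed levels of 1843, 1764 and 1908 CPM in Rest_het and 2190, 2060 and 1916 CPM in WT.

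The mitochondrial genes fell into 2 sharply different classes by read number in every library, which decides what can be said about them. A run of 6 neighbouring genes, mt-Co2, mt-Atp8, mt-Atp6, mt-Co3, mt-Nd3 and mt-Nd4l, held between 0 and 3 reads per library in both genotypes. They encode 2 of the 3 mitochondrial subunits of complex IV, both mitochondrial subunits of ATP synthase and 2 subunits of complex I. On each side of this run the counts were high. Just before it lies mt-Co1, with 5331 to 6521 reads per library, and just after it lies mt-Nd4, with 1279 to 1831.

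**Figure D1:**
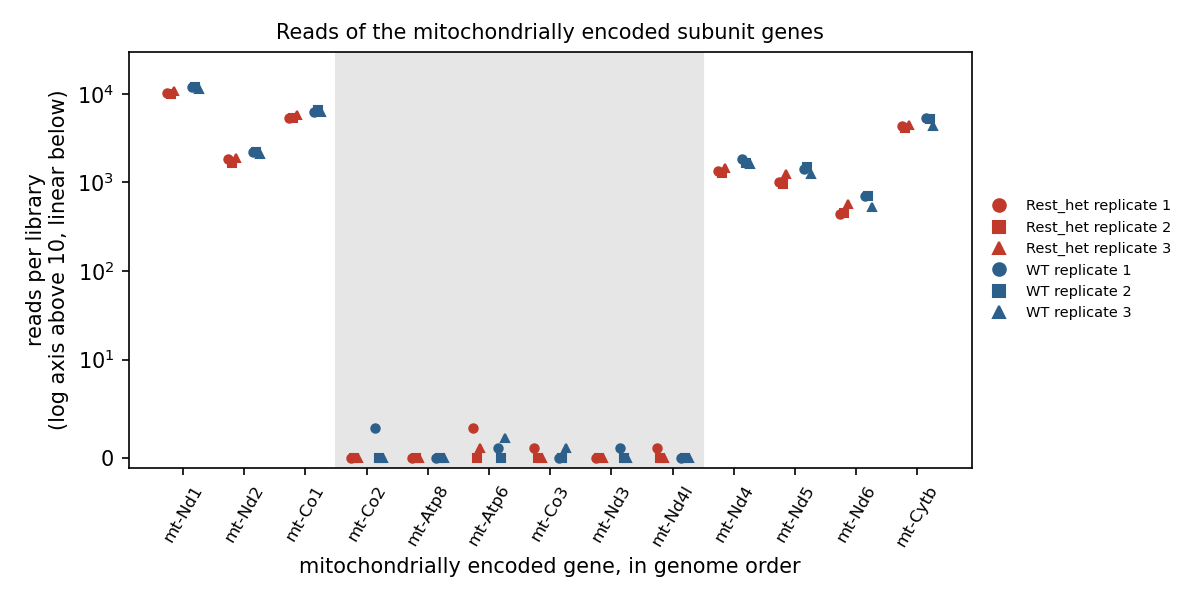
Reads per library (vertical axis, logarithmic above 10) of the 13 mitochondrially encoded subunit genes in genome order, with 3 Rest_het libraries left of 3 WT libraries at each gene. The 6 genes in the grey band hold at most 3 reads in any library, while mt-Nd1 holds 9956 to 11907.

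The same stretch of mitochondrial DNA exists a second time in the nuclear genome. The GENCODE annotation of GRCm38 places 7 pseudogenes of mitochondrial genes next to each other on the minus strand of chromosome 1, from Gm28439 at chr1:24611535-24612410 to Gm29216 at chr1:24615706-24616197. Aligned with their mitochondrial counterparts, the copies of mt-Co2 (681 bases compared), mt-Atp6 (678), mt-Co3 (783) and mt-Nd4l (294), and the 876 bases that cover the start of mt-Nd4, were identical at every base. Gm28438 differs from mt-Nd3 by 1 substitution in 345 bases, T3C, and Gm29216 differs from the end of mt-Co1 by 1 substitution in 483 bases, A1066T. In these tokens the mitochondrial base comes first, positions count from the first base of the mitochondrial gene, and the base of the copy comes last. No pseudogene of mt-Atp8 is annotated there.

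A stretch of 126 bases, which is the read length of this study, shows how alike the places are. Bases 64 to 189 of mt-Co2 (chrM:7013-7696, plus strand) and of its copy Gm28661 (chr1:24614885-24615565, minus strand) have the same letters, and the first 126 bases of mt-Nd3 (chrM:9459-9806, plus strand) and of Gm28438 (chr1:24612775-24613119, minus strand) differ at the base in capitals. All are GENCODE transcript sequences on GRCm38.
mt-Co2: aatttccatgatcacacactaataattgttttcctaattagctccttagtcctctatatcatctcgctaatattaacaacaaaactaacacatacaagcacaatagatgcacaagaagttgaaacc
Gm28661: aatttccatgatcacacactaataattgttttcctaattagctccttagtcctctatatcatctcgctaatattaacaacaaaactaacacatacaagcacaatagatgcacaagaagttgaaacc
mt-Nd3: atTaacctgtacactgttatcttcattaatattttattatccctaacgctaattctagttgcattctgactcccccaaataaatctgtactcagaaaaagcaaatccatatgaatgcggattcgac
Gm28438: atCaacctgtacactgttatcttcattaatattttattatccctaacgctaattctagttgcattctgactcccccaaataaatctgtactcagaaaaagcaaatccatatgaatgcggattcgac
A read of this length from within such a stretch matches both places equally well or nearly so. The 7 nuclear copies were near 0 as well, with 0 to 11 reads per library each. Read pairs that mapped to several places were kept apart from the gene counts and made up 6.29 to 7.48% of all pairs in the 6 libraries. How many of them came from these genes was not tested. The cause of the low counts of the 6 genes was not tested either, and for mt-Atp8 no copy was compared. Because the 6 genes are counted at or near 0 here, no level or fold is given for them.

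Per kilobase of gene, reads summed over the 6 libraries were 68736 for mt-Nd1, 24192 for mt-Cytb, 11398 for mt-Nd2, 6547 for mt-Nd6 and 4023 for mt-Nd5, genes that the copy does not reach. mt-Nd1 stood highest and mt-Nd5 lowest of the 7 measured genes on either scale used. For mt-Co1 and mt-Nd4, which the copy covers in part, reads were not counted by position. mt-Co1 had 23004 reads per kilobase over its full length, or 33466 if all its reads are assigned to the bases outside the copy. mt-Nd4 had 6622 over its full length, or 18177 on the same assumption. The place of both genes in the order therefore depends on that assumption, which was not tested. mt-Nd6 is the one member on the opposite strand (chrM:13552-14070), and it overlaps mt-Nd5 (chrM:11742-13565). The libraries do not mark strand, so reads of the opposite strand of either gene cannot be told apart from its own.

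All 7 measured mitochondrial genes had lower mean levels in Rest_het than in WT, by small margins, and none passed the test. mt-Nd4, a proton-pumping subunit of complex I, had 71.8, 70.9 and 76.8 CPM in Rest_het and 87.5, 86.9 and 82.1 CPM in WT. The groups did not overlap, and the log2 fold change was -0.23 ± 0.08 (SE, n = 3 each). Its unadjusted p in edgeR's quasi-likelihood test was 0.020 and its adjusted p 0.36. mt-Nd2, of the same membrane arm, had 99.2, 92.5 and 99.4 CPM in Rest_het and 104, 117 and 107 CPM in WT, with a log2 fold change of -0.17 ± 0.08 (SE). mt-Nd1 had 547, 552 and 565 CPM in Rest_het and 567, 628 and 581 CPM in WT. Those 2 genes did not overlap between the groups either, but for mt-Nd1 the highest Rest_het and the lowest WT value differed by less than the spread within either group, and its log2 fold change was -0.09 ± 0.08 (SE).

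In the other 4 mitochondrial genes the groups overlapped. mt-Nd5 had 55.0, 52.6 and 66.5 CPM in Rest_het and 67.6, 78.0 and 63.2 CPM in WT, a log2 fold change of -0.26 ± 0.12 (SE). mt-Nd6 had 24.0, 25.1 and 30.0 CPM in Rest_het and 33.9, 37.1 and 27.0 CPM in WT, a log2 fold change of -0.31 ± 0.14 (SE), the largest of the 7 and also the one with the fewest reads. Rest_het replicate 3 and WT replicate 3 were the libraries that crossed in both genes. mt-Cytb, the mitochondrial subunit of complex III, had 233, 227 and 236 CPM in Rest_het and 253, 273 and 225 CPM in WT, with a log2 fold change of -0.11 ± 0.09 (SE). mt-Co1, the catalytic core of complex IV, averaged 298 ± 8.54 CPM in Rest_het and 322 ± 21.4 CPM in WT (SD, n = 3 each), with a log2 fold change of -0.11 ± 0.08 (SE). Mitochondrial genes are transcribed together as long shared transcripts, mt-Nd6 from the other strand, so their 7 like directions are not 7 separate observations. Apart from mt-Nd4, which was highest in WT replicate 1, each measured mitochondrial subunit gene had its highest level of the 6 libraries in WT replicate 2. Without WT replicate 2, the log2 fold changes were -0.04 for mt-Cytb, -0.06 for mt-Co1, -0.05 for mt-Nd1 and -0.17 for mt-Nd5, each moved by over 1.5 times. Without WT replicate 3, that of mt-Cytb was -0.18.

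Across the 84 nuclear members the 2 genotypes were close. The filter on low counts left 80 of them, and 41 had a log2 fold change above 0 and 39 below. Their median was 0.0047, beside 0.0054 over all 15385 tested genes and -0.17 over the 7 tested mitochondrial members. No member of either genome was called at an adjusted p under 0.05 by edgeR, by DESeq2 or by limma-voom, against 19 of 15385 genes (0.123%) called over the whole table by edgeR, 127 (0.825%) by DESeq2 and 20 (0.13%) by limma-voom. The smallest adjusted p of a member was 0.36 in edgeR. At an unadjusted p under 0.05, edgeR placed 5 of the 87 tested members higher in Rest_het, where 6.98% of all tested genes stood, and 1 lower, where 4.72% stood. DESeq2 placed 4 higher and 1 lower, where 6.29% and 4.12% of all tested genes stood, and limma-voom 6 higher and 1 lower, where 7.29% and 4.84% stood. In 13 members all 3 Rest_het libraries were above all 3 WT libraries (10.4% of all tested genes), and in 11 they were all below (8.94%). Over 87 genes, the edgeR counts at p under 0.05 are below what those shares give, and the counts without overlap are somewhat above. Leaving out 1 library at a time gave 1 to 7 members higher and 0 to 3 lower at an unadjusted p under 0.05, with 2 higher without Rest_het replicate 1, 1 higher without Rest_het replicate 2 and 3 higher without WT replicate 1.

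**Figure D2:**
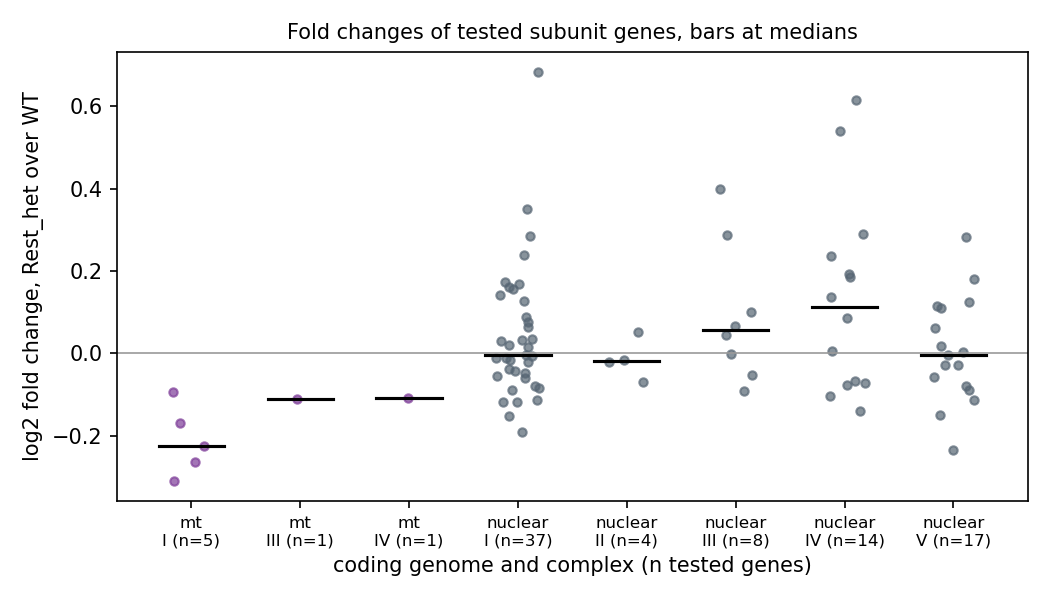
Log2 fold change of Rest_het over WT (vertical axis) for each of the 87 tested subunit genes, grouped by coding genome (mt, mitochondrial) and complex, with bars at the group medians. All 7 mitochondrial genes lie below 0, while the nuclear genes of every complex lie on both sides of it.

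Set against each other within a library, the mitochondrial reads were somewhat fewer per nuclear read in Rest_het. Summed over the members, there were 14.4, 13.6 and 15.4 mitochondrial reads per 100 nuclear reads in Rest_het and 15.4, 16.7 and 15.7 in WT. Nearly all these mitochondrial reads came from the 7 measured genes of 13, so the sums and shares here leave out the genes counted at or near 0. The means were 14.4 ± 0.89 in Rest_het and 15.9 ± 0.65 in WT (SD, n = 3 each). The groups did not overlap, yet Rest_het replicate 3 and WT replicate 1 all but met, at 15.36 and 15.41. The log2 ratio was lower by 0.14 in Rest_het (-0.1425), beside SDs between libraries of 0.09 in Rest_het and 0.06 in WT, and as a score over the members it was given no test. With the mean log2 CPM of the genes in place of their summed reads, the difference was -0.235. This ratio does not depend on how libraries are scaled. As shares of gene reads, without TMM scaling, neither side alone separated the groups. Mitochondrial members took 0.133, 0.133 and 0.146% of gene reads in Rest_het and 0.143, 0.148 and 0.136% in WT, and nuclear members took 0.923, 0.977 and 0.950% in Rest_het and 0.925, 0.889 and 0.868% in WT. Each share overlapped between the groups. On the TMM scale, each library's median log2 deviation from the mean of all libraries was also taken. Over the 7 tested mitochondrial members it separated the groups, with -0.087, -0.152 and -0.019 in Rest_het and 0.072, 0.181 and 0.021 in WT. Over the nuclear members it overlapped.

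The ribosomal RNAs of the mitochondrion, which come from the same DNA, give a second yardstick. mt-Rnr1, the small-subunit rRNA, had 77.2, 76.2 and 68.9 CPM in Rest_het and 105.6, 84.5 and 69.0 CPM in WT. mt-Rnr2, the large-subunit rRNA, had 1026, 1235 and 1103 CPM in Rest_het and 1245, 1256 and 1121 CPM in WT. Per 100 rRNA reads there were 119.8, 100.3 and 117.9 reads of the mitochondrial subunit genes in Rest_het and 104.8, 116.6 and 118.1 in WT, so this ratio overlapped fully. In bulk tissue, less RNA per cell and a different mix of cells cannot be told apart, and the part of cell mix in these values was not tested. Rest_het libraries had lower sums of neocortex markers, as given above. Choroid plexus markers summed to 178.9, 7.37 and 375 CPM in Rest_het and to 57.8, 2.85 and 4.17 CPM in WT, and erythroid markers to 323, 492 and 675 CPM in Rest_het and to 670, 532 and 609 CPM in WT.

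**Figure D3:**
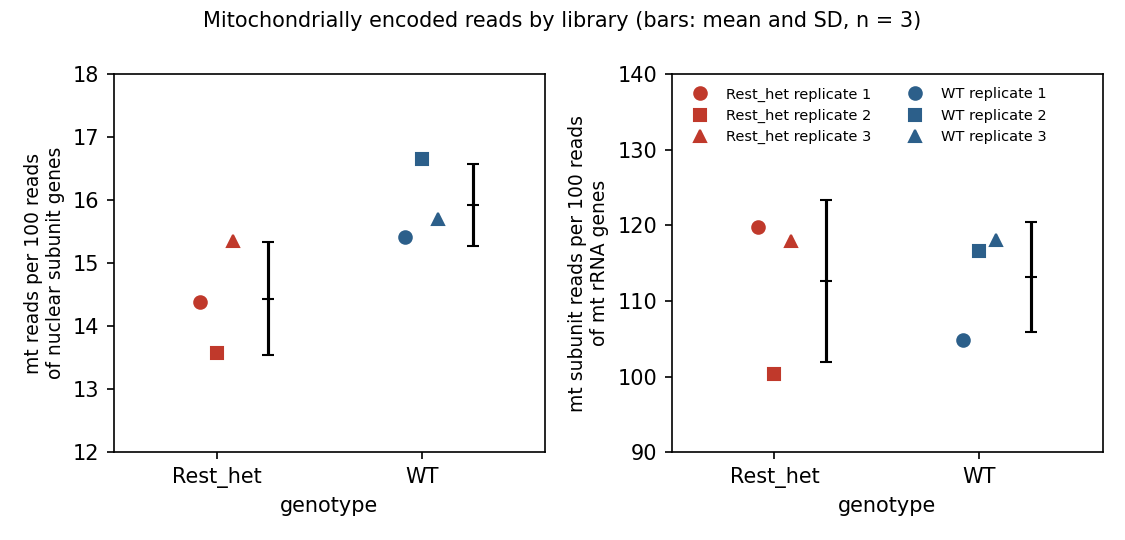
Reads of mitochondrial subunit genes per 100 reads of nuclear subunit genes (left axis, starting at 12) and per 100 reads of mitochondrial rRNA genes (right axis, starting at 90) in each library, with mean and SD of 3 libraries. The left-hand ratio is 13.6 to 15.4 in Rest_het and 15.4 to 16.7 in WT, and the right-hand ratio overlaps between the groups. Nearly all reads of mitochondrial subunit genes come from the 7 measured genes of 13.

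Complex I, the NADH dehydrogenase, had 37 tested nuclear members with a median log2 fold change of -0.0029, 18 above and 19 below 0. Its summed nuclear level was 3483, 3715 and 3434 CPM in Rest_het and 3527, 3594 and 3412 CPM in WT. Among the 7 nuclear core subunits, which hold the flavin and the iron-sulphur clusters, 2 lay above 0 and 5 below. The 2 genes of smallest p were accessory subunits of the membrane arm. Ndufb6 (chr4:40270591-40279421, minus strand) had 52.2, 60.3 and 51.7 CPM in Rest_het and 42.8, 43.6 and 48.4 CPM in WT. Its groups did not overlap, with a log2 fold change of 0.28 ± 0.10 (SE) and an edgeR adjusted p of 0.36. Ndufb8 (chr19:44548572-44555440, minus strand) had 57.8, 74.2 and 61.8 CPM in Rest_het and 42.7, 53.0 and 56.2 CPM in WT. Here too every Rest_het library was higher, narrowly, and the log2 fold change was 0.35 ± 0.13 (SE) at an edgeR adjusted p of 0.40. Ndufa13, which is needed for complex I assembly, had 166, 169 and 162 CPM in Rest_het and 147, 157 and 138 CPM in WT, a log2 fold change of 0.17 ± 0.08 (SE).

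The 2 nuclear complex I members of highest CPM differed little. Ndufv2, a core subunit with an iron-sulphur cluster, averaged 268 ± 14.6 CPM in Rest_het and 269 ± 12.9 CPM in WT (SD, n = 3 each). Ndufb9, an accessory subunit of the membrane arm, had 268, 272 and 251 CPM in Rest_het and 282, 282 and 277 CPM in WT, every Rest_het library below every WT library, with a log2 fold change of -0.09 ± 0.07 (SE), or -0.05 without Rest_het replicate 3. Ndufa4 had 210.2, 226 and 214 CPM in Rest_het and 208, 229 and 205 CPM in WT. Its paralogue Ndufa4l2, which is known for expression in pericytes and under low oxygen, was far rarer, at 2.57 CPM per kilobase of transcript in Rest_het and 1.59 in WT where Ndufa4 had 355 in Rest_het and 351 in WT. It had 3.14, 1.995 and 2.07 CPM in Rest_het and 1.82, 0.95 and 1.70 CPM in WT. The groups did not overlap, the log2 fold change was 0.68 ± 0.33 (SE), and the edgeR adjusted p was 0.46. The log2 fold change was 0.44 without Rest_het replicate 1 and 0.45 without WT replicate 2. Of the 8 endothelial and mural markers, all were tested and 5 lay above 0. Their summed levels were 1538, 1235 and 313.5 CPM in Rest_het and 330, 213 and 267 CPM in WT. The pericyte gene Rgs5 alone had 1432, 1161 and 196 CPM in Rest_het and 216, 152 and 181 CPM in WT. Pdgfrb, another mural marker, had 9.13, 6.37 and 9.56 CPM in Rest_het and 8.56, 4.17 and 6.75 CPM in WT. Each of the 8 markers overlapped between the groups. The part of endothelial and mural cells in the Ndufa4l2 values was not tested.

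Complex II, succinate dehydrogenase, is the complex with no mitochondrial gene, and its 4 members were close between the groups. Sdhb, the iron-sulphur subunit, had 331, 381 and 317 CPM in Rest_het and 309, 355 and 328 CPM in WT. Sdha, the flavoprotein, had 202, 187 and 187 CPM in Rest_het and 182, 210.1 and 190.0 CPM in WT. Both overlapped between the groups. The log2 fold changes were 0.05 ± 0.10 for Sdhb, -0.02 ± 0.08 for Sdha, and, for the membrane anchors, -0.07 ± 0.10 for Sdhc and -0.02 ± 0.08 for Sdhd (SE). Each of the 4 turned its sign when 1 or another library was left out.

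Complex III held the member of largest fold change among those over 10 CPM. Uqcrc1 (chr9:108936633-108949623, plus strand), a core protein of the complex, had 115, 115 and 96.3 CPM in Rest_het and 67.9, 85.3 and 94.7 CPM in WT. The groups did not overlap but nearly touched, at Rest_het replicate 3 and WT replicate 3. The log2 fold change was 0.40 ± 0.14 (SE, n = 3 each), with an unadjusted p of 0.018 and an adjusted p of 0.36 in edgeR. Uqcrfs1, the Rieske iron-sulphur protein, had 140.7, 147 and 136 CPM in Rest_het and 88.0, 125 and 134 CPM in WT. WT replicate 1 weighed on both genes: without WT replicate 1 the log2 fold change of Uqcrfs1 was 0.12 in place of 0.29, and that of Uqcrc1 was 0.27. Uqcrc2, the partner core protein of Uqcrc1, had the opposite sign, with 145, 143 and 145 CPM in Rest_het and 151, 160.1 and 149 CPM in WT and a log2 fold change of -0.09 ± 0.07 (SE), or -0.06 without WT replicate 2. Uqcrq, the nuclear complex III member of highest mean CPM, had a log2 fold change of 0.05 ± 0.10 (SE). That of Uqcr10 was 0.10 ± 0.10 (SE), from 0.02 to 0.16 with 1 library left out. Both genes overlapped between the groups. The 8 tested nuclear members had a median of 0.06, with 5 above and 3 below 0. The median was -0.0071 without Rest_het replicate 2, 0.0044 without WT replicate 3, 0.12 without Rest_het replicate 3 and 0.10 without WT replicate 2.

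**Figure D4:**
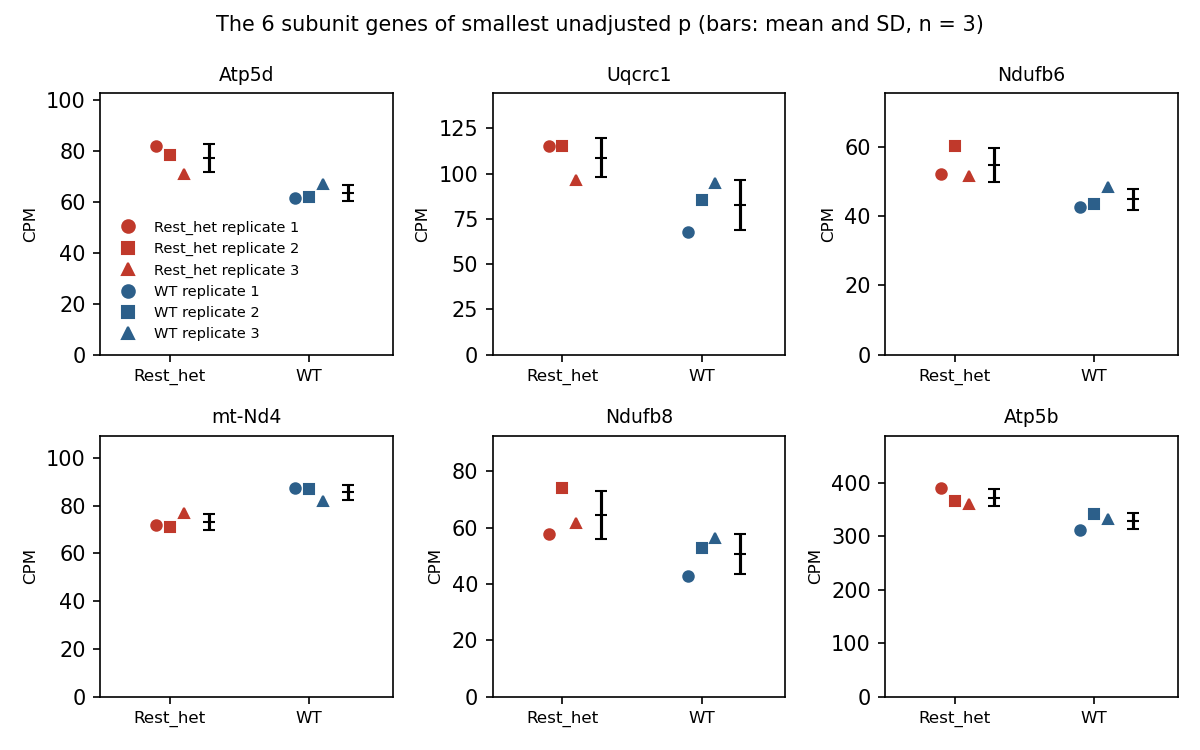
TMM-scaled CPM (vertical axes, starting at 0) of the 6 subunit genes with an unadjusted edgeR p under 0.05, by genotype, with points for libraries and mean and SD of 3. The Rest_het points lie above the WT points in Atp5d, Uqcrc1, Ndufb6, Ndufb8 and Atp5b and below them in mt-Nd4, and Uqcrc1 nearly touches, at 96.3 in Rest_het and 94.7 in WT.

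Complex IV, cytochrome c oxidase, had a median log2 fold change of 0.11 over its 14 tested nuclear members, 9 above and 5 below 0. That median rested partly on scarce isoforms: with genes required to reach 1 CPM in 3 libraries it was 0.0066. It was 0.05 without Rest_het replicate 3 and likewise without WT replicate 2. Cox5b had 69.0, 72.6 and 59.97 CPM in Rest_het and 52.9, 61.8 and 56.4 CPM in WT, so the groups overlapped, with a log2 fold change of 0.24 ± 0.10 (SE) and an edgeR adjusted p of 0.43. Cox8a had 131, 129 and 114 CPM in Rest_het and 108.9, 110.1 and 109.8 CPM in WT. The WT libraries were within about 1 CPM of each other and every Rest_het library was above them, with a log2 fold change of 0.18 ± 0.08 (SE) and an edgeR adjusted p of 0.43. Cox6a1 and Cox5a, with log2 fold changes of 0.14 ± 0.09 and 0.19 ± 0.13 (SE), overlapped between the groups. Without WT replicate 1 they were 0.08 for Cox6a1 and 0.09 for Cox5a. Cox6a1 was 0.09 without Rest_het replicate 2, and Cox5a was 0.12 without Rest_het replicate 1 and 0.31 without WT replicate 2.

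Several complex IV subunits exist as a common form and as a form restricted to some tissues, and the common form made up nearly all reads here. Per kilobase of the principal transcript, Cox4i1 stood at 291 CPM in Rest_het and 274 CPM in WT, against 1.41 CPM in Rest_het and 0.96 CPM in WT for Cox4i2, the form known from lung and low oxygen. Cox7a2 stood at 324 CPM per kilobase in Rest_het and 322 in WT, against 2.20 in Rest_het and 1.80 in WT for the muscle form Cox7a1. Cox7a2l, which joins complexes III and IV into supercomplexes, stood at 84.8 CPM per kilobase in Rest_het and 93.4 in WT. Cox6b1 stood at 321 CPM per kilobase in Rest_het and 336 in WT, against 1.23 in Rest_het and 0.79 in WT for Cox6b2, known from testis. The scarce forms Cox6a2, Cox7b2, Cox8b and Cox8c did not pass the filter, and Cox8b and Cox8c had 0 reads in all 6 libraries. Their common counterparts Cox6a1, Cox7b and Cox8a had 108, 131 and 227 CPM per kilobase in Rest_het and 98.4, 141 and 199 in WT. Muscle markers summed to 1.89, 3.77 and 1.43 CPM in Rest_het and to 1.58, 2.32 and 1.18 CPM in WT.

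Complex V, ATP synthase, had a median of -0.0047 over 17 nuclear members, 8 above and 9 below 0, and the genes of its catalytic head lay on both sides of 0. Atp5d (chr10:80138632-80145818, plus strand), the delta subunit of the central stalk, had 81.9, 78.3 and 70.9 CPM in Rest_het and 61.3, 61.7 and 67.1 CPM in WT. It had the smallest p of all members, with a log2 fold change of 0.28 ± 0.09 (SE, n = 3 each), an unadjusted p of 0.013 and an adjusted p of 0.36 in edgeR. Atp5b, the catalytic beta subunit, had 391, 367 and 360.2 CPM in Rest_het and 312, 342 and 333 CPM in WT, a log2 fold change of 0.18 ± 0.08 (SE) at an edgeR adjusted p of 0.42. Atp5a1, the alpha subunit that alternates with beta in the head and the nuclear member of highest CPM, had 503, 507 and 491 CPM in Rest_het and 500.0, 521 and 510 CPM in WT. Atp5c1, the gamma shaft, had 335, 354 and 349 CPM in Rest_het and 356, 380.1 and 361 CPM in WT, the opposite order from Atp5b without overlap. Of the 5 head and central stalk genes, 2 were above 0 and 3 below. Atp5j, outside that list, had 147, 150 and 140 CPM in Rest_het and 135, 138 and 130 CPM in WT. Its groups did not overlap, with a log2 fold change of 0.11 ± 0.07 (SE) and an edgeR adjusted p of 0.55.

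The 3 genes Atp5g1, Atp5g2 and Atp5g3 encode the same mature subunit c, which forms the rotating ring in the membrane. Atp5g3 was the highest per length, at 241 CPM per kilobase in Rest_het and 238 in WT, followed by Atp5g2 at 56.1 in Rest_het and 62.3 in WT and by Atp5g1 at 22.4 in Rest_het and 21.5 in WT. The annotated principal transcript of Atp5g1 is 4715 bases long, against 731 for Atp5g2 and 714 for Atp5g3, which lowers its level on this scale. Atp5g2 had 39.0, 41.1 and 43.0 CPM in Rest_het and 45.8, 45.5 and 45.2 CPM in WT. It did not overlap between the groups, with a log2 fold change of -0.15 ± 0.08 (SE) and an edgeR adjusted p of 0.48. Reads shared by near-identical subunit genes and their processed pseudogenes could be split or dropped by the counting, so the levels of such genes are uncertain.

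Nuclear subunit genes are known targets of NRF1 and of the ETS factor GABP, which tie their transcription together, and the promoter letters can be read beside the values. RefSeq promoter windows (GRCm38.p6, 250 bases before to 50 after the start) matched 68 of the 84 nuclear members. The NRF1 motif, written GCGCA, then any base, then GCGC, and searched on both strands, was held by 17 of 68 members (25%) and by 5.19% of the 27025 genes with a window. The ETS motif CCGGAAG was held by 16 (23.5%) and by 9.93% of genes, and the YY1 motif AAGATGGCG by 7 (10.3%) and by 1.64% of genes. By complex, the NRF1 motif was found in 7 of 32 members of complex I, 2 of 3 of complex II, 1 of 5 of complex III, 1 of 13 of complex IV and 6 of 15 of complex V. TCAGCACC, the left part of the RE1 element that REST binds, was found in 1 member, Atp5k (1.5%), and in 1.85% of genes. A match is a run of letters, not a measured site. Windows of a gene with several starts were searched together, and the motifs named here may overlap one another.

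The promoter of Uqcrc1, the member of largest fold change over 10 CPM, and those of the subunit c genes Atp5g2 and Atp5g3 show the NRF1 motif, in capitals and 5′ to 3′ on the gene's strand. The windows are chr9:108936398-108936697 (plus strand), chr15:102670998-102671297 (minus strand) and chr2:73911277-73911576 (minus strand).
Uqcrc1: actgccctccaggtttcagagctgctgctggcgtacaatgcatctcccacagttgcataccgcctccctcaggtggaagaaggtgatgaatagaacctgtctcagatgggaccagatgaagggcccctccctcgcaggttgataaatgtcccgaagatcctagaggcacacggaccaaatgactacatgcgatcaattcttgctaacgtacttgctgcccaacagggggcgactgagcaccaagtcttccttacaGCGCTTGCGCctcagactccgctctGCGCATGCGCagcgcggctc
Atp5g2: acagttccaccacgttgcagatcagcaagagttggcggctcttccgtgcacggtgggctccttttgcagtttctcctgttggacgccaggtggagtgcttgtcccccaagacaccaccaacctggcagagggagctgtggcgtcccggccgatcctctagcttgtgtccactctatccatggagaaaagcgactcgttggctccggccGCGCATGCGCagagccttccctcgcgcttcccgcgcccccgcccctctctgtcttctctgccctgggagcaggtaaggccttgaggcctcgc
Atp5g3: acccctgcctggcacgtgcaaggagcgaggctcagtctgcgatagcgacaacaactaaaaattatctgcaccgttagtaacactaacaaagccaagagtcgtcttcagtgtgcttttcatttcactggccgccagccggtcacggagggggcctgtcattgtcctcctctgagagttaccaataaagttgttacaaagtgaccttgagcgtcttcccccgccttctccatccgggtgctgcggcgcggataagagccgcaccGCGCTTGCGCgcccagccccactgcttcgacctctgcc
Uqcrc1 holds the motif 2 times and the other two hold it 1 time each. Their log2 fold changes were 0.40 for Uqcrc1, -0.15 for Atp5g2 and 0.02 for Atp5g3, and none of the 3 passed the test. Atp5g3 turned its sign under upper-quartile scaling. The window of Atp5g1, which also encodes subunit c, held 0 matches to the NRF1 motif. The windows of Atp5d, Atp5b, Ndufb6 and Ndufb8, the other nuclear members with an unadjusted edgeR p under 0.05, likewise held 0.

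One WT library stood apart for the shortest and some of the longer subunit genes, which touches many of the values above. WT replicate 1 had 111.9 CPM of Atp5k, the short e subunit of ATP synthase, where the other WT libraries had 57.5 and 50.8 and the Rest_het libraries 57.8, 73.3 and 56.2. Ndufa3 had 81.2, 78.3 and 73.4 CPM in Rest_het and 120.4, 70.2 and 75.2 CPM in WT, and Ndufa1 had 51.5, 57.9 and 49.3 CPM in Rest_het and 73.6, 51.1 and 47.4 CPM in WT. In each of these genes a single WT value exceeded the other 5. Without WT replicate 1 the log2 fold changes were 0.20 for Atp5k, 0.09 for Ndufa3 and 0.10 for Ndufa1, against -0.23, -0.19 and -0.12 with it. In the opposite direction, Ndufs3, Uqcrc1 and Uqcrfs1 were lower in WT replicate 1 than in every other library. Taking WT replicate 1 minus the mean of the other WT libraries on the log2 CPM scale, 16 of the 21 nuclear members with transcripts under 600 bases were above 0, with a median of 0.14, while the 59 longer members had a median of -0.06 with 21 above 0. Among all 138 tested protein-coding genes under 600 bases, 89 were above 0 with a median of 0.10. The 600-base limit was set after the values were seen. Across the 80 nuclear members Spearman's rho between transcript length and this difference was -0.437, a description over genes of the same libraries, and over 13044 tested protein-coding genes it was 0.161.

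**Figure D5:**
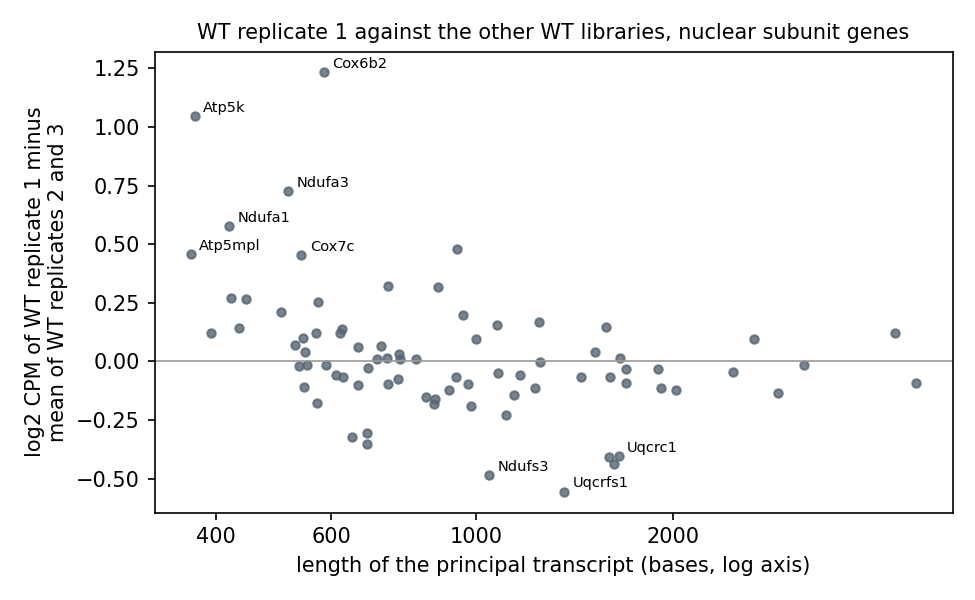
Log2 CPM of WT replicate 1 minus the mean of WT replicates 2 and 3 (vertical axis) against the length of the principal transcript (horizontal axis, logarithmic) for the 80 tested nuclear subunit genes. Cox6b2, Atp5k, Ndufa3 and Ndufa1 stand highest, all under 600 bases, and Uqcrfs1 stands lowest.

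The factors that build the complexes were taken as separate lists, and none of their genes was called. Of 14 complex I assembly factors, 6 were above and 8 below 0, and 3 had an unadjusted p under 0.05 in edgeR, all higher, where 6.98% of all tested genes stood. Ndufaf8 had 20.7, 21.0 and 21.4 CPM in Rest_het and between 15.2 and 16.9 CPM in the WT libraries, a log2 fold change of 0.40 ± 0.10 (SE) at an edgeR adjusted p of 0.32. Its libraries were tight within each group and did not overlap. Nubpl, which delivers iron-sulphur clusters to complex I, had 8.59, 8.04 and 8.87 CPM in Rest_het and 6.40, 4.85 and 7.36 CPM in WT, a log2 fold change of 0.45 ± 0.18 (SE). Of 18 tested complex IV assembly factors, 9 were above and 9 below 0. Coa6, which helps to load copper, had 13.7, 16.8 and 14.4 CPM in Rest_het and 10.9, 9.92 and 11.8 CPM in WT, a log2 fold change of 0.46 ± 0.13 (SE) at an edgeR adjusted p of 0.35. Cox10, which makes haem for complex IV, had a log2 fold change of 0.23 ± 0.11 (SE).

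In the smaller assembly lists, Sdhaf1 of complex II had a log2 fold change of 0.49 ± 0.20 and Sdhaf2 of -0.10 ± 0.09 (SE), with 2 of 4 genes above 0. Sdhaf2 was at -0.05 without WT replicate 1 and at -0.065 in the fit that omits Rest_het replicate 2. Of the 6 complex III factors 2 were above 0, with log2 fold changes of 0.12 ± 0.08 for Uqcc1 and 0.06 ± 0.09 for Uqcc2 (SE). All 4 ATP synthase assembly factors were above 0, with a median of 0.24, though Atpaf1 was all but at 0 (0.0032 ± 0.15, SE). Fmc1 at 0.31 ± 0.15 and Atpaf2 at 0.23 ± 0.12 (SE) had the smallest p. Fmc1 was 0.17 without Rest_het replicate 2, and Atpaf2 was 0.11 without WT replicate 1. None of these 14 genes except Sdhaf1 reached an unadjusted p under 0.05. Among 10 respiratory chain genes that the symbol rule does not reach, 6 were above 0, and Ndufab1, the acyl carrier subunit of complex I, had 46.2, 47.8 and 40.9 CPM in Rest_het and 36.6, 39.4 and 39.8 CPM in WT. Its log2 fold change was 0.22 ± 0.09 (SE), at an edgeR adjusted p of 0.42, and that of Higd1a was 0.13 ± 0.09 (SE), or 0.08 without WT replicate 1.

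Expression of the mitochondrial genome itself depends on nuclear genes. Of 25 such genes 10 were above and 15 below 0. Polrmt, the mitochondrial RNA polymerase, had 13.0, 14.0 and 11.8 CPM in Rest_het and 9.70, 8.12 and 11.8 CPM in WT, a log2 fold change of 0.39 ± 0.16 (SE). Grsf1, an RNA-binding protein of mitochondrial RNA granules, had 46.5, 48.6 and 48.2 CPM in Rest_het and 51.5, 59.0 and 55.4 CPM in WT, a log2 fold change of -0.21 ± 0.08 (SE). The edgeR adjusted p was 0.42 for Polrmt and 0.41 for Grsf1. Of 77 tested mitochondrial ribosomal protein genes, 42 were above and 35 below 0, and 6 had an unadjusted p under 0.05 in the higher and 3 in the lower direction, near the 6.98% and 4.72% of all tested genes. Mrpl38 and Mrps7, of the large and the small subunit, had log2 fold changes of 0.51 ± 0.16 and 0.45 ± 0.14 (SE), at edgeR adjusted p of 0.35 and 0.36.

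Among 8 regulators of nuclear respiratory genes, 3 were above and 5 below 0 and none reached an unadjusted p under 0.05. Esrra, an orphan nuclear receptor that drives respiratory genes, had 8.86, 8.70 and 7.12 CPM in Rest_het and 2.96, 6.80 and 6.13 CPM in WT, a log2 fold change of 0.64 ± 0.29 (SE). WT replicate 1 was again the lowest of the 6, and without it the log2 fold change was 0.35. Pprc1, a coactivator of NRF1, had 5.78, 6.10 and 6.53 CPM in Rest_het and 8.60, 7.49 and 7.004 CPM in WT, a log2 fold change of -0.33 ± 0.15 (SE). Of 13 citric acid cycle genes 4 were above and 9 below 0. Suclg2, a subunit of succinyl-CoA ligase, had 11.7, 12.0 and 15.9 CPM in Rest_het and 9.94, 7.91 and 10.7 CPM in WT, with a log2 fold change of 0.47 ± 0.18 (SE), and Idh3b, of isocitrate dehydrogenase, had a log2 fold change of -0.17 ± 0.08 (SE).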

How the data were processed

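Per the submitters' processing notes, STAR 2.5.2a and GRCm38.p4 were used, and the authors deposited whole-number read counts per gene, of which the unstranded ones were taken. The library chemistry given in the labels (oligo dT priming, PCR, tagmentation) marks neither strand nor single molecules, so PCR copies add to the counts. Pairs that were unmapped (1.21 to 1.45%), multiply mapped (6.29 to 7.48%), in no gene (21.4 to 26.9%) or ambiguous (2.54 to 2.85%) entered no library total.

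Of 48709 gene IDs, 48349 had a symbol. One fit covered all genes that passed filterByExpr (count minimum 10, total 15), 15385 in number: the quasi-likelihood test of edgeR 4.0.16 in R 4.3.3, scaled by TMM, with no term but genotype. Calls needed an adjusted p (Benjamini-Hochberg, all tested genes) under 0.05. Alternatives were DESeq2 1.42.0, limma 3.58.1 (voom), other scalings and filters, a replicate block and each library left out. The fit was tested on simulated data, and sequences were aligned with Biopython 1.88. Named genes were all mitochondrial members, for each nuclear complex the 2 of highest CPM and the 4 of smallest p, subunit isoforms, and the 2 of smallest p of each list. The members and lists were chosen with earlier results of these data known. The core, head and subunit c lists, the promoters shown and the genes that set WT replicate 1 apart were chosen after these values were seen. Fold changes are Rest_het over WT. The deposited normalized table was not used here.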

Additional observations from a re-analysis of the deposited data

Results flagged for a closer look

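Reads of transgene sequences appear in data outside the gene comparison. CreERT2 had 43 reads over the Rest_het libraries and 0 over the WT libraries, and LacZ had 0 reads over the Rest_het libraries and 121 over the WT libraries. The labels used here name neither transgene, and their part in the values of the subunit genes was not tested.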

How the results depend on the processing

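No member was called in any of 14 alternatives, and the smallest adjusted p over them ranged from 0.22 without a filter to 0.67 without Rest_het replicate 1. Sign was followed for 47 members, the mitochondrial ones, those of highest CPM and smallest p in each complex, the isoforms and those used for WT replicate 1. Of their 655 values 628 kept their direction, as did all 308 of 22 named list genes, and 27 values of 14 members turned. Under other scalings Atp5g3 was at -0.0009 (upper quartile), Ndufa4 at -0.0014 (upper quartile) and Cox7a2 at -0.0128 (upper quartile) and -0.0014 (DESeq2 size factors, and DESeq2). With 1 library left out, log2 fold changes ranged from -0.0616 to 0.0446 for Sdha, -0.0259 to 0.1112 for Sdhb, -0.1113 to 0.0142 for Sdhc, -0.0588 to 0.0160 for Sdhd, -0.0123 to 0.1184 for Atp5g1, -0.0080 to 0.0435 for Atp5g3, -0.4404 to 0.2045 for Atp5k, -0.0402 to 0.5904 for Cox7a1, -0.0334 to 0.0300 for Cox7a2, -0.2370 to 0.1024 for Ndufa1, -0.3345 to 0.0934 for Ndufa3, -0.0140 to 0.0665 for Ndufa4, -0.0453 to 0.0351 for Ndufv2 and -0.0389 to 0.1250 for Uqcrq. The complex IV median was 0.0066 with 1 CPM required in 3 libraries, which takes out its scarce isoforms. The log2 ratio of mitochondrial to nuclear members was -0.235 with mean log2 CPM in place of sums, which weights every gene alike, -0.14 without the genes of the nuclear copy, and from -0.19 to -0.10 with 1 library left out. The same omissions gave complex medians from -0.0293 to 0.0294 for I, -0.0602 to 0.0303 for II, -0.0071 to 0.1157 for III, 0.0507 to 0.1287 for IV and -0.0222 to 0.0377 for V. With 1 library left out, the nuclear median ranged from -0.03 to 0.03 and the mitochondrial median from -0.20 to -0.12. Same-numbered libraries correlated at 0.011, 0.037 and -0.144 in their deviations. Different-numbered ones ranged from -0.175 (Rest_het replicate 2 with WT replicate 1) to 0.17 (Rest_het replicate 2 with WT replicate 3). The highest correlation was thus not between same-numbered libraries. Whether the numbers mark a shared litter or batch cannot be told from these values. With a replicate block 0 members were called, 4 were higher and 0 lower at an unadjusted p under 0.05, and the ratio was -0.1425. With 3 libraries a group and counts without molecular identifiers, depth limits the scarce isoforms most.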

Other observations

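All mitochondrial genes together took 0.244, 0.265 and 0.270% of gene reads in Rest_het and 0.279, 0.276 and 0.252% in WT, a share that leaves out the reads of the 6 genes counted at or near 0.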
